A study of Caenorhabditis elegans with 2 samples.

Results

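The genes of the SUMO pathway in Caenorhabditis elegans were examined for binding of MEP-1 in embryos. The 8 genes described were taken by symbol from the annotation, which holds 19973 nuclear protein-coding genes: smo-1, aos-1, uba-2, gei-17, ulp-1, ulp-2, ulp-4 and ulp-5. For each gene, every region whose summit lay between 2000 bp upstream of the annotated 5′ end and the 3′ end was collected from the lists on the ce11 genome build. Of the 8 genes, 4 held a summit of the thresholded peak set (smo-1, uba-2, ulp-2 and ulp-4), against 16.1% of all protein-coding genes. For uba-2 and ulp-2, the 5′ end of another gene was nearer to the summit.

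ChIP-seq, in which DNA crosslinked to a protein is pulled down and sequenced, was done on eGFP-tagged MEP-1, a zinc-finger protein found in complexes with the Mi-2 remodeller LET-418 and the deacetylase HDA-1. The strain is OP70, with the genotype unc-119(ed3) III; wgIs70, and the labels describe an insertion for mep-1 in whole embryos of mixed stages, pooled from both sexes. There are 2 biological replicates of this 1 group and no second condition, so nothing here compares conditions. The labels do not say which promoter drives the tagged protein, and whole embryos mix all cell types.

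SUMO is a small ubiquitin-related protein that is joined to lysines of other proteins. A heterodimeric E1 enzyme, AOS-1 with UBA-2, activates it for transfer, and ligases (E3) such as GEI-17 of the PIAS family help choose the substrate. Proteases of the ULP family trim the SUMO precursor or remove SUMO from its targets. In worms the pathway is needed for embryonic development, and MEP-1 and HDA-1 are themselves reported to be modified by SUMO.

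Sequence is shown for the peak of the SUMO protease gene ulp-4 and for the weaker region at the start of ulp-2, another protease gene, as examples of a peak and of a candidate below the threshold. Both summits have the member's own 5′ end as the nearest one and lie outside transcribed sequence. The ulp-2 region itself, from 4959747 to 4960082, reaches into the gene, and the stretch shown stops at the base before the annotated 5′ end. Each runs 5′ to 3′ on the strand of the gene, from the RefSeq sequence of WBcel235, the assembly that ce11 names, and capitals mark 5 words or their reverse complements: TATAAA, as in a TATA box, GAGAGA, as in GA repeats, TTTCAG, as at worm splice acceptors, TTTTTTT, a run of T, and CCGCCC, as in GC boxes. The ulp-4 sequence spans chrII:8128721-8128921 on the plus strand, and the ulp-2 sequence chrII:4959877-4960015 on the minus strand. In each, 100 bases precede the summit.
ulp-4: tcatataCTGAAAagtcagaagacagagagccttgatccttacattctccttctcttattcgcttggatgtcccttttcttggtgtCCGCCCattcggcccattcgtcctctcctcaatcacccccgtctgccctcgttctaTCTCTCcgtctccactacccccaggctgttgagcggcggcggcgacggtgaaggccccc
ulp-2: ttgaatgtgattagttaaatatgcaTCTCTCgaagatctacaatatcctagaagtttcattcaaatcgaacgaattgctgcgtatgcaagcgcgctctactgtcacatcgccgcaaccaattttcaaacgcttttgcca
In the ulp-4 sequence, CCGCCC begins 14 bp before the summit, the reverse complement of TTTCAG 93 bp before it and that of GAGAGA 42 bp after it. In the ulp-2 sequence, the reverse complement of GAGAGA begins 75 bp before the summit. Of the bases shown, 55.7% were G or C for ulp-4 and 40.3% for ulp-2, over unlike lengths of 201 and 139 bp. Over 150 bp on each side of the summit, the shares were 53.2% and 34.6%. Over that length the ulp-2 region also held TATAAA and TTTCAG.

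The irreproducible discovery rate (IDR) procedure compares the ranks of regions between replicates, and the list that passed it, the IDR set, has 2404 peaks. Before that threshold, the list from pooled reads and that of replicate 2 hold 30000 regions each and that of replicate 1 holds 25216, called candidates here. Candidates of a replicate were matched to a pooled region where the summits, the highest points, lay within 100 bp. Each region carries the signal value of the authors' peak caller, which is comparable only within a list, and ranks count from the strongest. An IDR summit lay in the window of 4 of 8 members, against 16.1% of all protein-coding genes. The members' windows were longer, with a median of 6.28 kb against 4.03 kb, so a promoter window of fixed length, reaching 1000 bp upstream and 200 bp downstream, was counted too. It held an IDR summit in 2 of 8 members, smo-1 and uba-2, against 11.4% of genes. The member's own 5′ end was the nearest of any gene's for 2 of 8, smo-1 and ulp-4, against 8.0% of genes. With 8 genes and no second condition, no test was made of these counts.

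**Figure D1:**
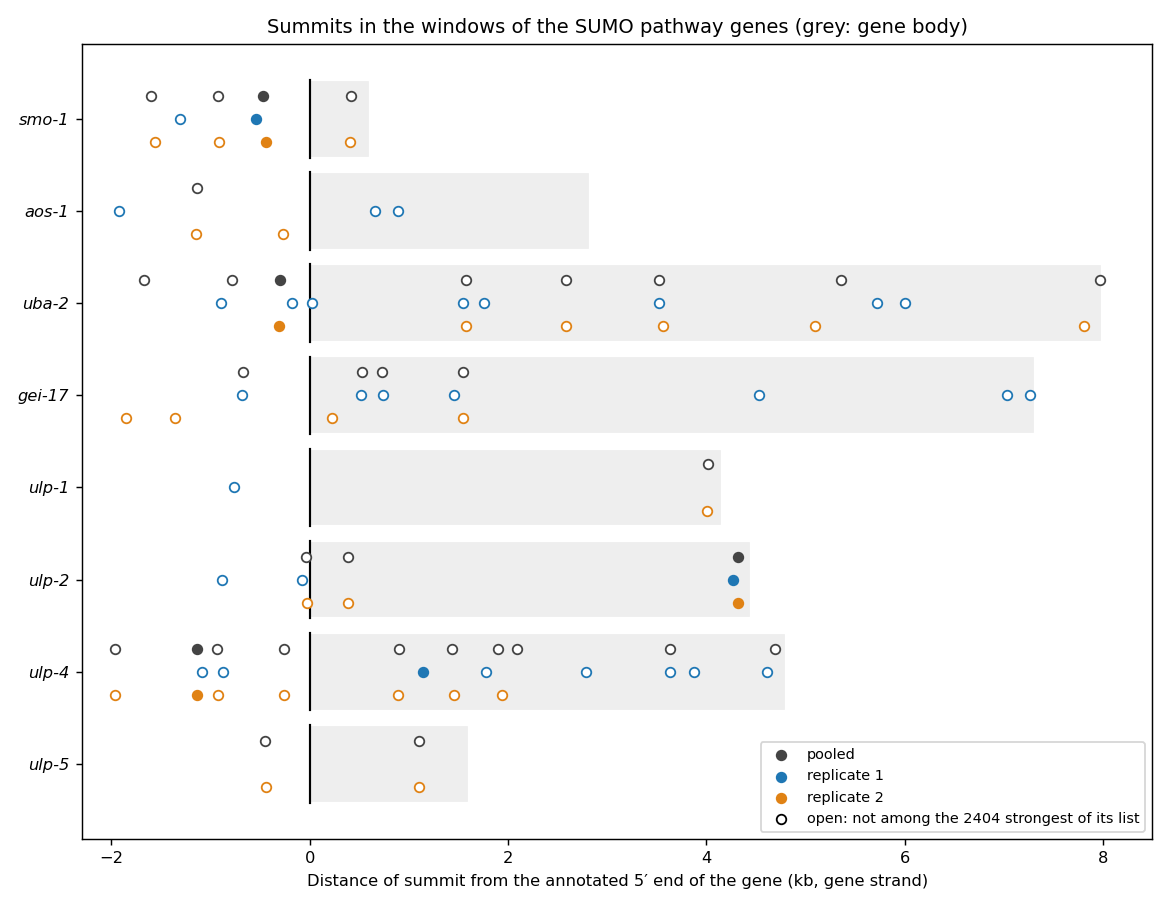
Position of every summit in the windows of the 8 genes, in kb from the annotated 5′ end on the strand of the gene, for the pooled list and both replicates; grey bars are gene bodies, and filled points are among the 2404 strongest regions of their list. The filled pooled points lie upstream of the 5′ end in smo-1, uba-2 and ulp-4, and near the 3′ end in ulp-2.

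The SUMO gene itself, smo-1 (WBGene00004888, chromosome I from 1340678 to 1341265, plus strand), had 1 IDR peak, from 1340036 to 1340371. Its summit lay between genes, 474 bp upstream of the 5′ end, and no other gene had its 5′ end within 500 bp. The signal value was 54.8, which placed it at rank 1106 of the 2404 peaks. In replicate 1 the matching summit, 68 bp away, had a signal of 9.71 and rank 1674, and in replicate 2 the summit 30 bp away had 42.9 and rank 1162. The ranks in the replicates were closer together than for any other member peak matched in both. A weaker pooled candidate 921 bp upstream, in the 3′ UTR of K12C11.7, reached 14.1 and was matched only in replicate 2, where its rank was 3429.

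The genes for the E1 subunits differed. uba-2, which encodes the subunit with the catalytic cysteine (WBGene00006700, chromosome I from 12741588 to 12749562, plus strand), had an IDR peak from 12741117 to 12741452 with a signal of 43.8 and rank 1637. Its summit lay 303 bp upstream of uba-2 but only 10 bp upstream of vps-25, which encodes a subunit of the ESCRT-II sorting complex and is transcribed the other way. The 5′ ends of the pair are 313 bp apart, and the summit is in the promoters of both. Replicate 2 lists the peak at 43.0 and rank 1157, with its summit 11 bp away. The nearest summit of replicate 1 lies 180 bp upstream of uba-2, with a signal of 7.49 and rank 2816. It is a match to the peak within 200 bp, or by overlap of 50% of both regions, but not within 100 bp. Inside the gene, a candidate in an intron, 1572 bp from the 5′ end, was listed in the pooled list at 16.5, in replicate 1 at rank 3807 and in replicate 2 at rank 14203.

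Its partner aos-1 (WBGene00000142, chromosome V from 10127492 to 10130295, minus strand) had no IDR peak. The pooled list held 1 candidate in its window, 1133 bp upstream in a coding exon of wdr-20, with a signal of 10.1 and rank 15680. Replicate 2 lists the same place at rank 9747, and none of the 3 summits of replicate 1 matched it. The strongest of those 3 ranked 15763. The pooled list and those of the replicates include background, per the file descriptions.

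The E3 ligase gene gei-17 (WBGene00001574, chromosome I from 9100843 to 9108140, minus strand, 10 annotated transcripts) had no IDR peak. Its strongest pooled candidate, in an intron 732 bp from the outermost 5′ end, reached 13.3 and rank 9603. Replicate 1 ranked it higher, at 3124 with a signal of 7.14, and replicate 2 had no summit within 100 bp. This candidate lies 131 bp downstream of the 5′ end of a shorter gei-17 transcript. A further one, 1550 bp into the gene and 107 bp from the start of the noncoding RNA gene W10D5.5, was matched in both replicates, at rank 3809 in replicate 1 and 14862 in replicate 2. By its strongest region, gei-17 stood at the 82.8th percentile of protein-coding genes in replicate 1 and at the 60.9th in replicate 2. These were different places: in replicate 2 the strongest region lay outside the gene, 1855 bp upstream of the outermost 5′ end.

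Of the 4 SUMO protease genes, ulp-2 and ulp-4 had an IDR peak in the window. ulp-2 (WBGene00006737, chromosome II from 4955450 to 4959876, minus strand) held the strongest peak of any member window, with a signal of 82.6 and rank 432, from 4955386 to 4955721. This summit lies in the 3′ UTR of ulp-2, 4322 bp from its 5′ end, and 127 bp upstream of pbs-3, which encodes a beta subunit of the proteasome core. pbs-3 begins 23 bp beyond the 3′ end of ulp-2 on the same strand, so the peak lies in the promoter window of pbs-3 and not in that of ulp-2. Replicate 1 lists it at a signal of 8.21 and rank 2353, and replicate 2 at 70.9 and rank 353.

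At the start of ulp-2 itself a weaker region was found, the one whose sequence is given with that of ulp-4. Its summit lay 39 bp upstream of the 5′ end, with a pooled signal of 29.0 and rank 2989, outside the IDR set, whose weakest peak has 34.2. Replicate 2 ranked it 2532, with a −log10 q-value at the ceiling of 3.72, and replicate 1 ranked it 12379. Among the members' pooled regions it is the nearest to the limit of the IDR set from below, and the uba-2 peak is the nearest from above.

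ulp-4 (WBGene00006739, chromosome II from 8129960 to 8134742, plus strand) had an IDR peak from 8128653 to 8128988, farther upstream than the others. The summit lay between genes, 1139 bp upstream, outside the promoter window, yet no 5′ end of another gene was nearer. The signal was 59.4 and the rank 939. Replicate 2 ranked it 687 with a signal of 56.2, and replicate 1 ranked it 4614 with 5.87. A second candidate 940 bp upstream reached 26.5 in the pooled list and was matched in both replicates, at rank 6301 in replicate 1 and 10084 in replicate 2. ulp-4 held 10 pooled candidates in all, the most of the 8 genes, and 6 of these lay inside the gene, which carries genes for small RNAs. The strongest region of replicate 1 in this window was one of its introns, 1139 bp downstream of the 5′ end and 404 bp from the snoRNA gene C41C4.16, with a signal of 8.98 and rank 1980. Thus the strongest place at ulp-4 was not the same in the 2 replicates.

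ulp-1 (WBGene00006736, chromosome III from 5165659 to 5169799, minus strand) and ulp-5 (WBGene00006740, chromosome I from 6812660 to 6814249, plus strand) had no IDR peak. The only pooled candidate of ulp-1, in its 3′ UTR and 475 bp upstream of T10F2.2, had a signal of 6.83 and rank 28464. Replicate 1 lists a single other place for ulp-1, 762 bp upstream, at rank 16411. ulp-5 held 2 pooled candidates, of which the stronger, in an intron, reached 9.64 and rank 16887, and replicate 1 listed none in its window. An IDR region from 6814147 to 6814482 overlaps the last 103 bp of ulp-5, but its summit is 66 bp beyond the 3′ end and 196 bp upstream of teg-4, with a signal of 43.5.

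**Figure D2:**
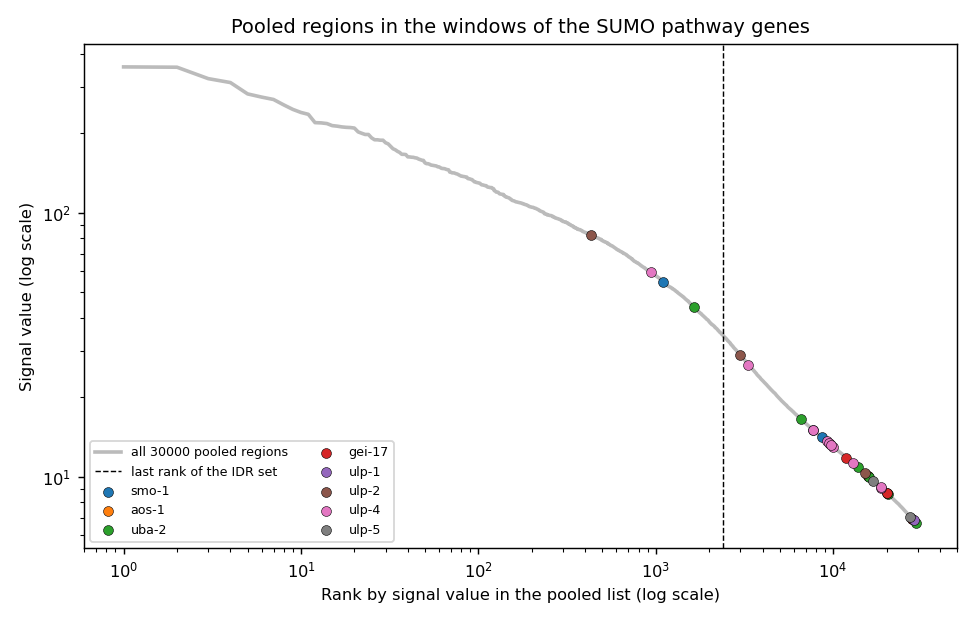
Signal value against rank for all 30000 pooled regions (grey line, both axes logarithmic), with the regions in the windows of the 8 genes as coloured points. The IDR set ends at rank 2404; 4 regions of these genes lie inside it, from ulp-2 at rank 432 to uba-2 at rank 1637, and the others lie beyond it, led by ulp-2 at rank 2989 and ulp-4 at 3332.

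Every member had at least 1 pooled candidate in its window, against 59.2% of protein-coding genes, whose windows were shorter at the median. In the promoter window of fixed length, 6 of 8 members had one, against 39.2% of genes. In all, the 8 windows held 33 pooled candidates, or 0.665 per kb, against 0.298 per kb over the windows of all genes. Per gene it ran from 0.163 at ulp-1 and 0.208 at aos-1, both below the value over all genes, to 1.47 at ulp-4 and 1.55 at smo-1. By the strongest pooled region in the window, ulp-2 stood at the 96.3rd percentile of protein-coding genes, ulp-4 at the 92.6th, smo-1 at the 91.4th and uba-2 at the 88.2nd. The others were lower, with gei-17 at 64.9, aos-1 at 55.4, ulp-5 at 53.8 and ulp-1 at 42.0. The value of ulp-2 comes from the peak in the promoter window of pbs-3. By the strongest pooled region in the promoter, ulp-2 was at 87.0 and ulp-4 at 86.2, with smo-1 at 93.8 and uba-2 at 91.5. In replicate 1 alone, ulp-5, with no region, was at 18.9. The median of the strongest pooled signal was 28.6 over the 8 members and 8.69 over all genes, with genes that hold no candidate counted as 0. Restricted to promoters, the members' median was 17.6, where aos-1 and ulp-1 held no candidate, and the gene median was 0.

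**Figure D3:**
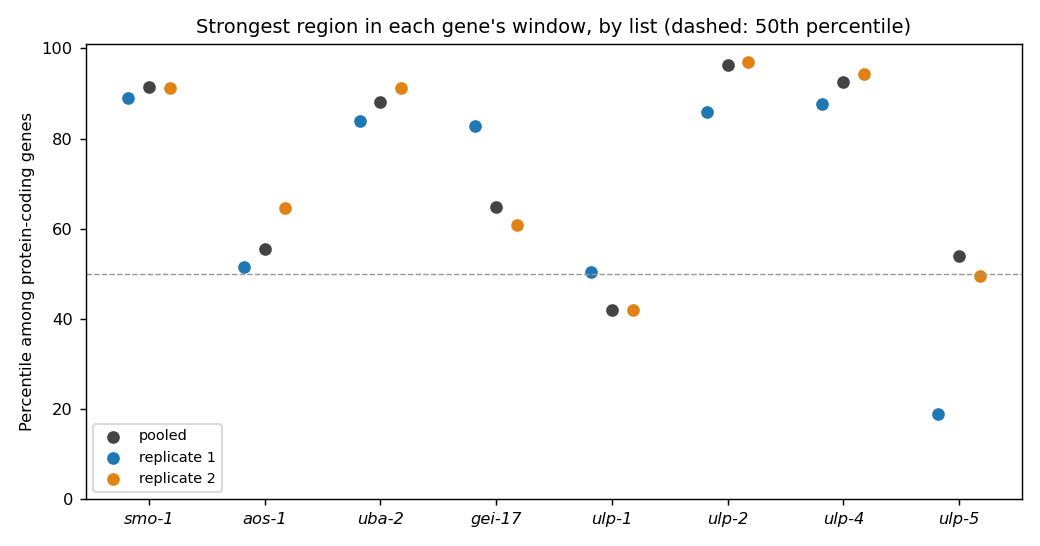
Percentile of the strongest region in each gene's window among all protein-coding genes, in the pooled list and in each replicate. In the pooled list 4 genes stand at 88.2 or higher; in replicate 1 gei-17 is at 82.8, against 64.9 in the pooled list.

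Of the 4 IDR summits in member windows, 3 had a summit within 100 bp in both replicates, against 83.3% of the IDR set. This count was 0 within 50 bp and 4 within 200 bp. Of all 33 pooled candidates in these windows, 8 were matched in both replicates (24.2%), against 19.3% of all pooled candidates. In replicate 1, 13 were matched (39.4% against 29.3%), and in replicate 2, 23 were (69.7% against 72.8%). All 4 IDR summits were at the −log10 q-value ceiling of replicate 2, 3.72, as were 2651 of its 30000 regions. IDR peaks are the strongest pooled regions, and the 2367 matched in replicate 2 had a median rank of 1192 there. The whole list is therefore not a like comparison, and the share of the IDR set at either ceiling was not counted. None of the 3 member summits matched in replicate 1 was at its ceiling, 2.69. Only 247 of the 25216 regions of replicate 1 reached it, fewer than the 2032 IDR peaks matched there. The −log10 q-values of the 3 summits in replicate 1 ran from 2.07 at ulp-4 to 2.56 at ulp-2. When the 2404 strongest regions of one replicate were used alone, 4 of 8 members held one in replicate 2, against 15.7% of genes. In replicate 1 it was 3 of 8, smo-1, ulp-2 and ulp-4, against 14.3% of genes, and at ulp-4 it was the intron region and not the upstream peak. No control alignment is named for the ce11 list of replicate 2 in the file descriptions, while one is named for replicate 1, and the part of this in the difference was not tested.

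**Figure D4:**
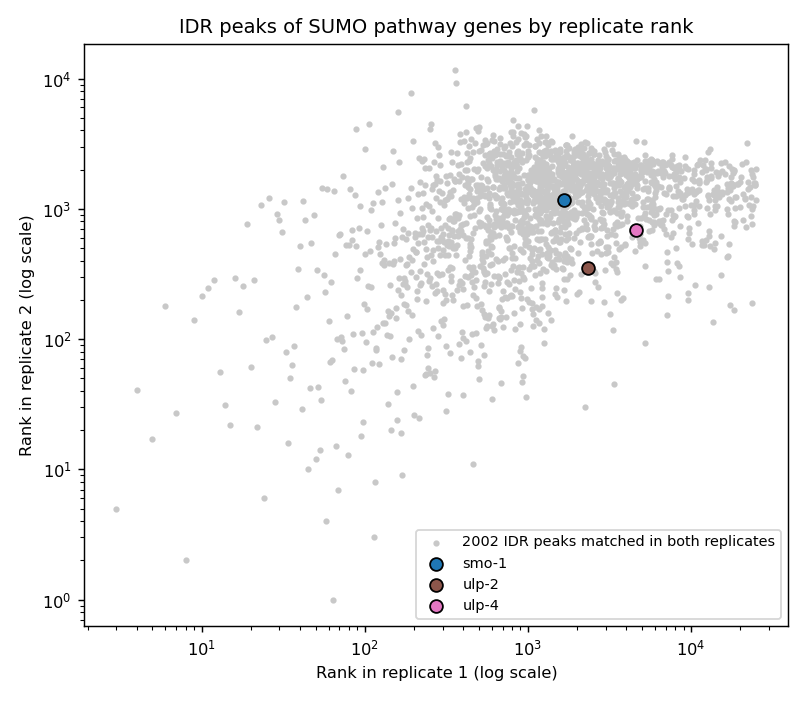
Rank in replicate 1 against rank in replicate 2 (logarithmic axes) for the 2002 IDR peaks matched in both, with the peaks in the windows of smo-1, ulp-2 and ulp-4 in colour. The smo-1 peak has similar ranks, 1674 and 1162, while those of ulp-2 (2353 and 353) and ulp-4 (4614 and 687) differ more.

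Among the 29 weaker pooled candidates of the members, 5 were matched in both replicates (17.2%), against 13.7% of all pooled candidates outside the IDR set. They were the upstream regions of ulp-2 and ulp-4, an intron and a coding exon of uba-2 and the intron of gei-17 near W10D5.5. The uba-2 exon candidate, 3522 bp into the gene, was weak everywhere, with a pooled signal of 10.9 and ranks of 19864 and 19516 in the replicates.

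For each peak matched in both replicates, the other IDR peak closest in the log10 ranks of the 2 replicates was found among 2001 peaks. The smo-1 peak was nearest to one at rank 1643 and 1147 by gly-11. The ulp-2 peak was nearest to one whose nearest 5′ end is that of the snoRNA gene B0524.10, 5196 bp away, and the ulp-4 peak to one 77 bp upstream of aip-1.

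The 4 IDR peaks had the usual width of 336 bp and did not share one base composition. Over 150 bp on each side of the summit, 27.6% of bases were G or C at uba-2, 38.2% at ulp-2, 42.9% at smo-1 and 53.2% at ulp-4, where the IDR set had a median of 40.2%. Only 0.707% of IDR peaks had a lower value than the uba-2 peak, and 95.6% had a lower value than the ulp-4 peak. The word GAGAGA, on either strand, was found at ulp-4 only, although 47.7% of IDR peaks held it, against 24.3% of the other pooled candidates. TTTCAG was found at smo-1, uba-2, ulp-2 and ulp-4, where 32.0% of IDR peaks and 41.7% of other candidates held it. CCGCCC was found at ulp-2 and ulp-4 (11.6% of IDR peaks, 8.01% of the others), and TTTTTTT at uba-2 and ulp-2 (42.8% and 53.6%). TATAAA was found at none of the 4, where 25.2% of IDR peaks and 27.4% of the others held it. The words were searched apart, so they may overlap. A match only says that these letters are present.

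Of 17 genes for worm proteins reported to carry or bind SUMO, 4 had an IDR summit in the window, each in the promoter. Of all protein-coding genes, 16.1% had one in the window and 11.4% in the promoter. The 2 strongest were at top-2, which encodes topoisomerase II (76.1), and sop-2, which encodes a Polycomb-like repressor (62.6). The others were at car-1, which encodes an RNA-binding protein of germ granules (46.4), and hda-1 (39.3). The top-2 summit lay 67 bp upstream of the nuclear pore gene npp-3, nearer than to top-2, and the hda-1 summit lay 970 bp upstream of hda-1 and 81 bp into C53A5.18. For pie-1, whose product protects germline fate, the strongest pooled candidate had 8.80, and for let-418 25.5. The window of mep-1 held no candidate in any list.

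Of 19 genes of ubiquitin and other ubiquitin-like systems, 11 had an IDR summit in the window and 8 in the promoter. The shares of all protein-coding genes were 16.1% and 11.4%. The 6 strongest in promoters included lgg-1 (71.5), lgg-2 (65.1) and lgg-3 (61.5), which encode ubiquitin-like proteins of autophagy. The others of the 6, all of the NEDD8 system, were at ned-8, the modifier (68.5), ubc-12, its E2 enzyme (64.8), and dcn-1, a neddylation cofactor (46.9). As at uba-2, several summits lay closer to a neighbour: that at ubc-12 was 3 bp upstream of rbm-3.2 and that at lgg-3 3 bp upstream of rgs-5. The ubc-12 peak ranked 548 in replicate 2 and 5188 in replicate 1. ulp-3, a ULP-family gene whose product is reported to act on NEDD8, had no candidate in any list. The median of the strongest pooled signal in the window was 28.6 for the SUMO genes, 39.4 for these systems and 23.7 for the SUMO-carrying proteins, with window medians of 6.28, 3.71 and 7.37 kb. The lists were not tested against each other.

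**Figure D5:**
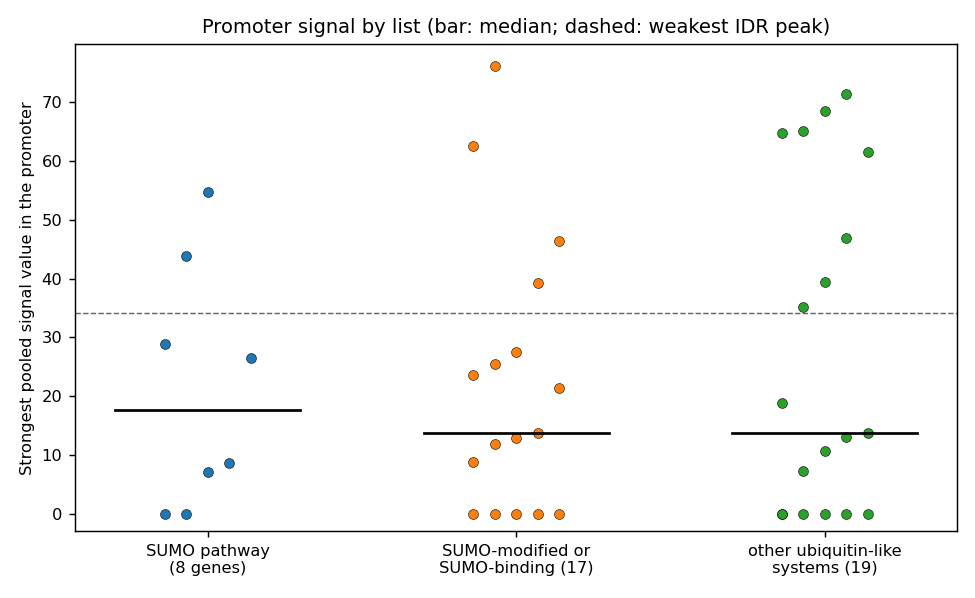
Strongest pooled signal value in the promoter of each gene, for the 8 SUMO pathway genes, 17 genes for SUMO-carrying or SUMO-binding proteins and 19 genes of ubiquitin and other ubiquitin-like systems; bars are medians (17.6, 13.8 and 13.7) and the dashed line is the weakest IDR peak. In each list some genes lie above the line and some at 0, and the ranges overlap.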

How the data were processed

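ChIP-seq region lists for MEP-1 in 2 replicates of 1 group were used, on ce11, which is the WBcel235 build of the Ensembl release 115 annotation and of the RefSeq genome. The authors deposited a signal value per region and the −log10 of a q-value, both from a peak caller, for each replicate, for pooled reads and for the IDR set. Per the file headers and descriptions, the pooled and replicate lists hold peaks and background. The sources used here name no aligner, peak caller or threshold. The IDR set is identical to the 2404 strongest pooled regions. Depth is unknown, so no interval is given, and no test was made. Replicate summits within 100 bp were matched. The ce10 lists were not used here. Of 45 listed symbols, 1 had no match and was not analysed. Windows and distances were tested on simulated data.

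One gene of the pathway is not reported here, and counts and medians are over the other 8. Named genes are all 8 members, the genes nearest to their summits, up to 6 promoter-peak genes per other list and the peaks most alike in replicate ranks. K12C11.7, wdr-20, C41C4.16, npp-3, C53A5.18, rbm-3.2, rgs-5, pie-1, let-418, mep-1 and ulp-3 were named after their values were seen. The members, lists and windows were chosen with earlier results of these data known. Python 3.11.15, pandas 2.3.3 and numpy 2.4.6 were used. Alternatives covered windows, thresholds, matching rules and each replicate alone.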

Additional observations from a re-analysis of the deposited data

How the results depend on the processing

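Leaving out a replicate changed some counts. With the 2404 strongest regions of the other replicate alone, the members with a summit in the window numbered 3 to 4, against 4, and those with one in the promoter 1 to 2, against 2; the low values are those without replicate 2, where uba-2 was missing. With the 1202 strongest IDR peaks, members with a promoter summit fell from 2 to 1, again without uba-2. Matches in both replicates fell from 3 of 4 to 0 with summits within 50 bp, and were 4 of 4, with uba-2, within 200 bp or by overlap of 50% of both regions. With the 1202 strongest regions of replicate 1 in place of 2404, members with one in the window fell from 3 to 0, and with 4808 they numbered 5, gei-17 and uba-2 among them. Other windows, other 5′ ends and overlap in place of summits moved no count by more than 1.5 times; overlap added ulp-5, limits of 1000 and 500 bp upstream lost ulp-4, and the wide promoter gained ulp-4. The median percentile of the strongest region was 76.5, 77.1 in promoters and 77.9 to 83.4 with 1 replicate. Single genes moved more. In promoters aos-1 was at 30.4 against 55.4, ulp-1 at 30.4 against 42.0, ulp-2 at 87.0 against 96.3 and ulp-4 at 86.2 against 92.6. There smo-1, uba-2, gei-17 and ulp-5 stood higher than in the window, but not by a stronger region. For smo-1 and uba-2 it was the same peak. The pooled signal was weaker for gei-17, 8.70 against 13.3, and for ulp-5, 7.04 against 9.64. Fewer genes held a pooled candidate in the promoter than in the window, 39.2% against 59.2%, and 30.4 is the value shared by genes with none. In promoters 5 of 8 members moved by more than 1 SD of the replicates, an SD from 2 values per gene. It depends on how close the replicates were: smo-1 counted as moved, at 93.8 against 91.4, and ulp-5 did not, at 62.8 against 53.8. Without replicate 2, gei-17 was at 82.8 against 64.9 and ulp-5 at 18.9 against 53.8. No paired analysis was possible because there is 1 group. Without read numbers, no value can be weighted by depth.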
